A study of Mus musculus with 12 samples.

Results

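Transcripts of 8 cytokine genes were followed by RNA-seq in mouse dendritic cells derived from bone marrow (BMDCs), with and without lipopolysaccharide (LPS) and with and without JSH-23. The genes were Il6, Lif and Osm of the IL-6 family, Il10, Il15, and the colony-stimulating factors Csf1, Csf2 and Csf3. They were taken by gene symbol and were 8 of the 55335 genes listed in each library. All cells were C57BL/6 and carried the Rosa26-CreER transgene with an intact Ctcf gene (WT), a Cre recombinase that tamoxifen switches on, and all came from bone marrow grown for 6 days with GM-CSF, the protein encoded by Csf2. The mice were young adults of both sexes according to the study's methods, which do not state whether animals were pooled. The study describes 4-hydroxytamoxifen as the means of deleting Ctcf in knockout cultures and not in WT ones, and floating cells carrying CD11c were selected with beads as BMDCs. The 4 groups held 3 libraries each and were named WT (no LPS, no JSH-23), WTL (LPS at 100 ng/ml for 3 h), WT + JSH23 (JSH-23 at 100 µM for 3 h, no LPS) and WTL + JSH23 (JSH-23 for 3 h, then LPS). LPS is a bacterial cell wall component sensed by TLR4, and JSH-23 is a small molecule used to keep the NF-κB subunit RelA out of the nucleus. No source used here says if the groups without JSH-23 were given its solvent. Replicates were numbered 4 to 6 in WT and WTL and 1 to 3 in the JSH-23 groups. The series calls them biological replicates but names no animals or cultures, so the p values measure the spread between these libraries, part of which may be technical.

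The IL-6 family cytokines signal through receptors that share the chain encoded by Il6st and activate JAK kinases and STAT3. IL-10 also signals through STAT3 and restrains inflammatory gene expression in dendritic cells and macrophages, whereas IL-15, which is presented on its own receptor chain to NK cells and CD8 T cells, and GM-CSF use STAT5. The products of Csf1, Csf2 and Csf3 drive the growth of macrophages, of granulocytes together with macrophages and dendritic cells, and of neutrophils, and several of these cytokine genes are known targets of NF-κB in LPS-stimulated myeloid cells.

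The libraries held between 24664724 and 34837847 expected counts, and within-group Pearson correlations of log2 CPM across genes ran from 0.991 to 0.993, so that no library stood apart. CPM denotes expected counts relative to the scaled library size, on 1 common scale for all libraries. All 10 dendritic cell markers listed were over 1 CPM in each group, with summed levels between 14640 and 18990 CPM. All 9 macrophage markers were also over 1 CPM, and their sum moved with the treatments, from 1523 to 1618 CPM in WT, 2389 to 2495 CPM in WTL, 1214 to 1240 CPM in WT + JSH23 and 1829 to 1970 CPM in WTL + JSH23. Most of the difference with LPS lay in Cd14, an LPS co-receptor, with mean levels of 239 CPM in WT, 1268 CPM in WTL, 373 CPM in WT + JSH23 and 1152 CPM in WTL + JSH23. Of the 8 stromal markers, Pdgfrb alone was over 1 CPM, with means of 2.44 CPM in WT, 27.5 CPM in WTL, 1.27 CPM in WT + JSH23 and 11.5 CPM in WTL + JSH23, while the defining collagen gene Col3a1 was at 0 in every group. Between 3 and 5 of the 8 neutrophil markers were over 1 CPM, and their sum ranged from 32.2 to 36.9 CPM in WT, 46.4 to 47.6 CPM in WTL, 30.2 to 34.0 CPM in WT + JSH23 and 32.9 to 36.4 CPM in WTL + JSH23, with the defining marker Ly6g at no more than 0.136 CPM on average. Sums for T and NK cell, B cell and mast cell markers stayed under 8.11, 4.22 and 1.48 CPM, with 1 of 8, 1 of 5 and 0 of 6 over 1 CPM. The part of other cells in the results below was not tested.

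The promoter windows of Il6, Lif and Csf1 are shown because they let the NF-κB-like letters be seen beside the LPS values of these genes. Windows of RefSeq on GRCm38.p6 were at hand for 4 of the 8 genes (Il6, Lif, Csf1 and Csf2). They reached from 250 bases before to 50 bases after the RefSeq start site, and only bases before both the RefSeq and the GENCODE start are printed, 5′ to 3′ along the gene. Capitals mark matches to a κB-like pattern, GGG, any 5 bases and CC, on either strand. The stretches lie at chr5:30012864-30013113 on the plus strand, chr11:4257318-4257556 on the plus strand and chr3:107760470-107760719 on the minus strand.
Il6: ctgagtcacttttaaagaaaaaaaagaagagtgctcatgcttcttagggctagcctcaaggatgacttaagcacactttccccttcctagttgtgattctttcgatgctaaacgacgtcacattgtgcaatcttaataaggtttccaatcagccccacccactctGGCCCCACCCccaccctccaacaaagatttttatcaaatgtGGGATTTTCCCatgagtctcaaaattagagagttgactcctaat
Lif: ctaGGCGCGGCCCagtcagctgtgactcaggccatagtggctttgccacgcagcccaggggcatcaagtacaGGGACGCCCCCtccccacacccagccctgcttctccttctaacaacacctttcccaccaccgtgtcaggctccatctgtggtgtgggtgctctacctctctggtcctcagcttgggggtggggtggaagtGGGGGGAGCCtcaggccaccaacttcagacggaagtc
Csf1: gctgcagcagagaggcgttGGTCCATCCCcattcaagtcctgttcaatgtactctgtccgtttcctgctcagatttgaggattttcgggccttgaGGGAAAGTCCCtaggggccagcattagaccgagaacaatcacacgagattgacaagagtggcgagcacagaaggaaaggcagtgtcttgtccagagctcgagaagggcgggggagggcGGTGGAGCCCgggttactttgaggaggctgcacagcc

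In the Il6 window the κB-like run GGGATTTTCC lay 44 to 35 bases before the start site and overlapped its counterpart on the other strand by all but 1 base, and a further match lay 85 to 76 bases before it. In Csf1 the run GGGAAAGTCC lay 155 to 146 bases before the start. The pattern is loose, and 50.8% of the 32841 windows scanned held at least 1 match. All 4 windows held it, but the match of Csf2 lay after the start site, so that 3 of 4 held it in the bases before the start, where the share over all windows was 45.8%. The AP-1 letters TGANTCA stood in the windows of Il6 and Lif and in 7.81% of all windows, and the C/EBP letters TTGCNNAA in those of Il6 and Csf2 and in 10.8% of all. No match was found in the 4 windows for the CSF box GAGATTCC (0.904% of all windows), the CRE letters TGACGTCA (1.79%) or the GAS letters TTCNNNGAA (8.30%), each searched on both strands. The RefSeq start of Csf2 used for its window lies 232 bases before the GENCODE start.

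LPS raised the transcripts of every cytokine gene that could be tested. Counts of 7 of the 8 genes were high enough for the test, an edgeR quasi-likelihood fit to all 12 libraries with p values adjusted over 14357 genes, and Csf2 was not. A gene was called when its adjusted p was under 0.05 and its change over 2-fold. Between WTL and WT, 5 of the 7 genes (Il6, Lif, Il10, Csf1 and Csf3) were called higher, beside 7.36% of all genes tested, and all 7 passed the adjusted p alone in the same direction, beside 31.0% of all genes. The median log2 fold change was 3.47 over the 7 genes and -0.05 over all genes. With JSH-23 present the same 5 genes were called higher with LPS (WTL + JSH23 against WT + JSH23, background 5.85%), and 6 passed the adjusted p alone (background 27.4%), Osm being the exception. The median LPS change with JSH-23 was 2.65 on the log2 scale over the 7 genes and -0.02 over all genes. As these are bulk samples, fewer cells of a type and less RNA per cell cannot be told apart in any of these changes.

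**Figure D1:**
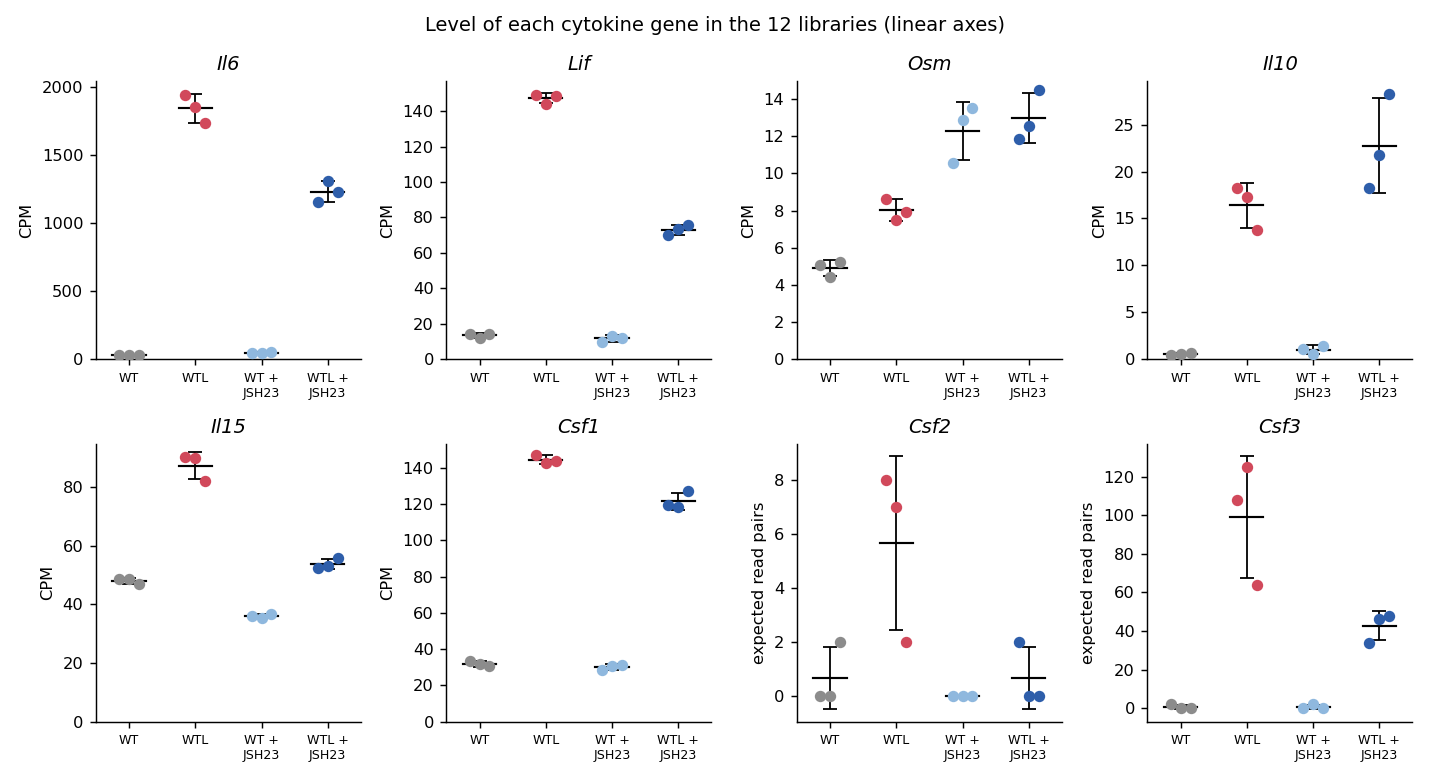
Level of each of the 8 genes in every library, with a linear axis in CPM for 6 genes and in expected read pairs for the sparse Csf2 and Csf3. Points are libraries, horizontal lines are means and bars are ± SD over 3 libraries; Osm is the gene whose highest levels are in the JSH-23 groups with and without LPS.

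JSH-23 changed the 7 genes in different directions. In LPS-stimulated cells (WTL + JSH23 against WTL), 2 genes were called lower, Lif and Csf3 (background 3.25%), and by the adjusted p alone 5 were lower (Il6, Lif, Il15, Csf1 and Csf3, background 24.2%) and 2 were higher (Osm and Il10, background 24.5%). In unstimulated cells (WT + JSH23 against WT), Osm was the 1 gene called higher (background 2.43%). By the adjusted p alone Il6 and Osm were higher (background 18.8%) and Il15 was lower (background 22.1%). The test of the interaction, that is, of the difference between the LPS changes in the presence and absence of JSH-23, passed for 4 of 7 genes, all with a smaller log2 change under JSH-23 (Il6, Lif, Osm and Il15, background 8.44%), and for none with a larger one (background 9.54%). Csf2 apart, the WTL + JSH23 libraries still exceeded WT for all 7 genes by the adjusted p alone (background 30.7%), with 6 called (background 7.29%) and Il15 under 2-fold. The comparisons share libraries with each other, so they are not independent of one another.

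**Figure D2:**
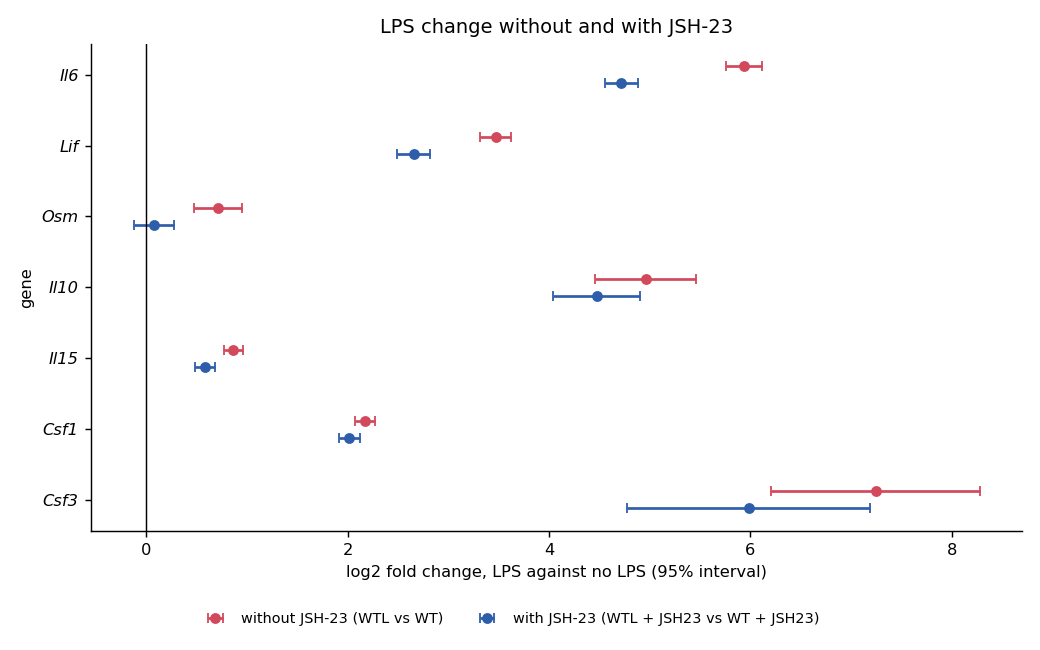
Log2 fold change with LPS for the 7 genes tested, without JSH-23 (red) and with JSH-23 (blue). Points are estimates and bars are 95% intervals; the intervals of Il6 and Lif are separate, those of Il10 and Csf3 overlap, and the wide ones of Csf3 rest on 2 read pairs per group without LPS.

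Il6, on chromosome 5 at 30013114 to 30019981 (plus strand), encodes the acute-phase cytokine IL-6. Its level was 32.9, 28.7 and 29.0 CPM in WT and 1944, 1857 and 1734 CPM in WTL. With JSH-23 it was 42.7, 42.8 and 54.6 CPM without LPS and 1153, 1308 and 1229 CPM with it. No 2 of the 4 groups overlapped. The inhibitor thus moved it in opposite directions, up by 0.63 ± 0.08 (SE) on the log2 scale in unstimulated cells (edgeR adjusted p = 2.02e-06) and down in stimulated cells (log2 fold change -0.59 ± 0.07, adjusted p = 1.97e-07). The LPS change was 61.1-fold without and 26.3-fold with JSH-23, and the interaction of -1.21 ± 0.11 (adjusted p = 1.63e-07) holds both movements. In CPM, the mean rise with JSH-23 was 65.2% of the rise without it, with a span of 57.4% to 74.4% when the closest and the farthest libraries were set against each other. The effective transcript length that the quantification assigned to Il6, which follows the estimated mix of its isoforms, also differed with LPS, from 1048 to 1095 bases in WT and 1091 to 1103 bases in WT + JSH23 against 935 to 943 bases in WTL and 964 to 967 bases in WTL + JSH23. These ranges with and without LPS did not overlap, and the difference was not tested.

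Lif, on chromosome 11 at 4257557 to 4272514, encodes leukemia inhibitory factor, which signals through the receptor pair of Lifr and Il6st. It stood at 14.2, 11.7 and 14.2 CPM in WT and at 149, 144 and 148 CPM in WTL. With JSH-23 the values were 9.62, 13.2 and 12.1 CPM without LPS and 70.0, 73.7 and 75.5 CPM with LPS. The unstimulated groups overlapped, while WTL + JSH23 lay between them and WTL in every library. LPS raised Lif 11.1-fold without JSH-23 (log2 fold change 3.47 ± 0.07, adjusted p = 1.00e-19) and 6.30-fold with it (2.65 ± 0.08, adjusted p = 4.47e-17). The interaction was -0.81 ± 0.11 (adjusted p = 3.27e-05). Among stimulated cells Lif fell 2.02-fold with JSH-23 (log2 fold change -1.01 ± 0.06, adjusted p = 1.87e-11), just past the 2-fold limit. The call ended with upper quartile scaling (-0.998), with limma on TPM (-0.83) and without WTL + JSH23 replicate 1 (-0.98), where the adjusted p still passed. Its rise in CPM was 45.8% of that without the inhibitor (span 41.3% to 50.7%). Without LPS the change of -0.20 had a 95% interval of -0.39 to -0.01 and an adjusted p of 0.0942, between 0.0202 and 0.570 over the 19 alternatives, of which 3 passed.

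Osm, the gene of oncostatin M, an IL-6 family cytokine made by activated myeloid cells, lies 16530 bases before Lif on chromosome 11 (4236420 to 4241026, plus strand) but had another pattern. Its values were 5.05, 4.44 and 5.24 CPM in WT, 8.64, 7.50 and 7.92 CPM in WTL, 10.5, 12.9 and 13.5 CPM in WT + JSH23 and 11.9, 12.6 and 14.5 CPM in WTL + JSH23. All 6 libraries with JSH-23 were above all 6 without it. JSH-23 raised Osm 2.51-fold without LPS (log2 fold change 1.33 ± 0.11, adjusted p = 1.41e-09) and 1.62-fold with LPS (0.69 ± 0.10, adjusted p = 9.76e-06). LPS raised it 1.64-fold without JSH-23 (0.71 ± 0.12, adjusted p = 1.51e-05). With JSH-23 the LPS change was 0.08, with an interval of -0.13 to 0.28 and an adjusted p of 0.535, and its sign turned under 4 of the alternatives tried. The interaction was -0.64 ± 0.15 (adjusted p = 0.00526), and it missed the threshold on the deposited TPM (log2 difference -0.39, limma adjusted p = 0.112), the highest p of its 19 alternatives, the lowest being 0.000141. The order of levels was WT, WTL, WT + JSH23 and WTL + JSH23, and the last pair overlapped.

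Il10, on chromosome 1 at 131019845 to 131024974, encodes the anti-inflammatory cytokine IL-10. It was nearly silent without LPS, at 0.398, 0.541 and 0.655 CPM in WT and 1.08, 0.506 and 1.43 CPM in WT + JSH23. With LPS it reached 18.3, 17.3 and 13.7 CPM in WTL and 18.3, 21.7 and 28.3 CPM in WTL + JSH23. The LPS groups stood clear of the unstimulated ones, whereas the groups with and without JSH-23 met or overlapped in both states. LPS raised Il10 31.1-fold without JSH-23 (log2 fold change 4.96 ± 0.24, adjusted p = 8.50e-14) and 22.2-fold with it (4.47 ± 0.21, adjusted p = 7.83e-14). The interaction of -0.49 had an interval of -1.38 to 0.41 (adjusted p = 0.496). In stimulated cells Il10 was 1.37-fold higher with JSH-23 (0.46 ± 0.14, adjusted p = 0.00812), and this did not pass with DESeq2 (adjusted p = 0.205), without WTL replicate 6 (adjusted p = 0.0533) or without WTL + JSH23 replicate 3 (adjusted p = 0.0681). The lowest adjusted p of its 19 alternatives was 1.41e-07, from the edgeR fit without a filter on low counts. In unstimulated cells the change of 0.94 had an interval of 0.09 to 1.79 and an adjusted p of 0.0727, on 51 counts in WT and 91 in WT + JSH23. It passed under 6 of its 19 alternatives, whose adjusted p ran from 0.00107 to 0.330. In CPM the LPS rise with JSH-23 was 136.9% of that without (span 94.2% to 212%), the one gene of the 7 above 100%.

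**Figure D3:**
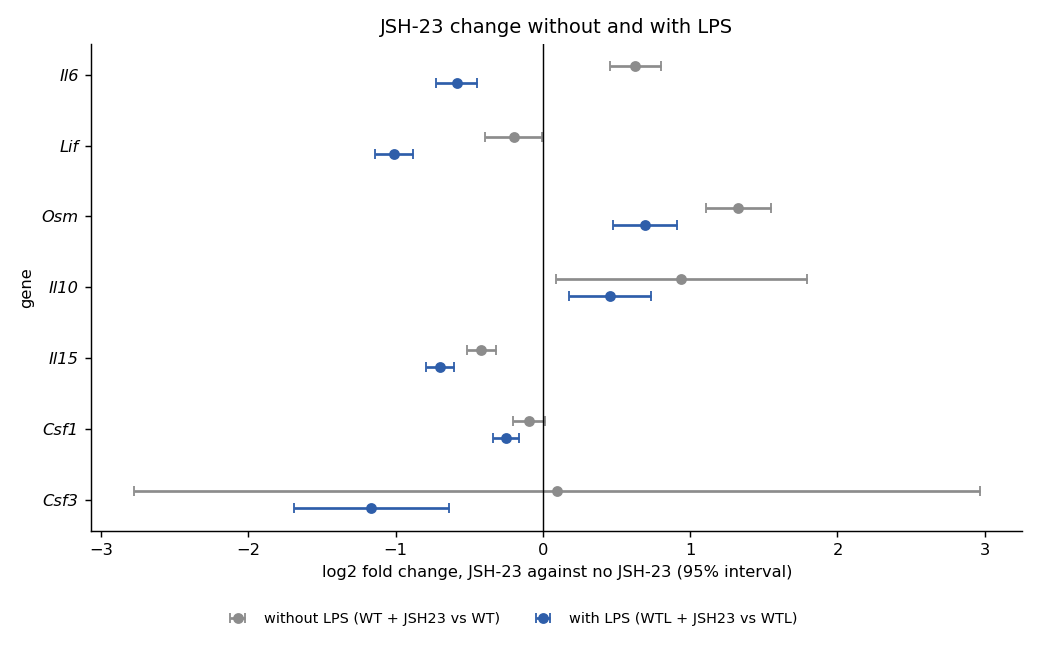
Log2 fold change with JSH-23 for the 7 genes tested, in unstimulated cells (grey) and in LPS-stimulated cells (blue). Points are estimates and bars are 95% intervals. With intervals clear of 0, Il6 lies on opposite sides in the 2 states, Osm and Il10 lie above 0 in both, and Lif and Il15 lie below 0 in both. The changes of Il10 and Lif in unstimulated cells did not pass the adjusted p.

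Il15, on chromosome 8 at 82331632 to 82403222 (minus strand), encodes IL-15, a survival factor for NK and memory CD8 T cells. Its levels were 48.7, 48.6 and 46.9 CPM in WT, 90.2, 89.9 and 82.0 CPM in WTL, 36.1, 35.2 and 36.6 CPM in WT + JSH23 and 52.6, 53.3 and 55.7 CPM in WTL + JSH23. The 4 groups formed 4 separate steps, with WT + JSH23 lowest, then WT, WTL + JSH23 and WTL. JSH-23 lowered Il15 in both states, by 1.34-fold without LPS (log2 fold change -0.42 ± 0.05, adjusted p = 2.99e-07) and by 1.63-fold with LPS (-0.70 ± 0.05, adjusted p = 3.91e-11). LPS raised it 1.82-fold without JSH-23 (0.86 ± 0.05, adjusted p = 3.67e-13) and less with it (log2 fold change 0.58 ± 0.05, adjusted p = 1.34e-09), and the interaction was -0.28 ± 0.07 (adjusted p = 0.00494). On the TPM scale the interaction was -0.25 with a limma adjusted p of 0.0569, the only one of its 19 alternatives to miss the threshold (lowest adjusted p 0.000703). Cells given both agents stood 0.16 ± 0.05 above WT on the log2 scale (adjusted p = 0.00467), a difference that was -0.0009 on the TPM scale, and its adjusted p ran from 0.00248 to 0.990 over the alternatives. The rise in CPM with JSH-23 was 45.5% of the rise without it (span 36.9% to 61.5%).

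Csf1, on chromosome 3 at 107741048 to 107760469 (minus strand), encodes M-CSF, the macrophage growth factor. It rose from 33.6, 31.7 and 30.6 CPM in WT to 147, 143 and 144 CPM in WTL, and from 28.3, 30.7 and 31.1 CPM in WT + JSH23 to 119, 118 and 127 CPM in WTL + JSH23. The unstimulated groups overlapped and the stimulated ones did not. The LPS change was 4.52-fold without JSH-23 (log2 fold change 2.18 ± 0.05, adjusted p = 1.62e-19) and 4.05-fold with it (2.02 ± 0.05, adjusted p = 1.53e-18). The interaction was -0.16, with an interval of -0.30 to -0.02 and an adjusted p of 0.115, which became 0.0448 without WTL + JSH23 replicate 3 and reached 0.920 among its 19 alternatives. In stimulated cells Csf1 was 1.19-fold lower with JSH-23 (-0.25 ± 0.04, adjusted p = 5.96e-05), a difference that missed the threshold on TPM (limma adjusted p = 0.0994, against 4.55e-08 at the lowest), and its rise was 81.2% of that without (span 74.6% to 90.5%).

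Csf3, on chromosome 11 at 98701263 to 98703629, encodes G-CSF, the neutrophil growth factor, and was seen almost only after LPS. Its expected counts were 2, 0 and 0 in WT, 108, 125 and 64 in WTL, 0, 2 and 0 in WT + JSH23 and 34, 46 and 48 in WTL + JSH23. A count of 0 allowed up to between 0.0854 and 0.103 CPM in the unstimulated libraries that held none. In CPM the stimulated groups stood at 3.77 ± 0.71 in WTL and 1.70 ± 0.45 in WTL + JSH23 (SD, n = 3), and their libraries did not overlap. LPS gave 297 against 2 counts without JSH-23, a ratio of 185.5 with an exact 95% interval of 50.9 to 1539 that covers counting error only, and 128 against 2 counts with JSH-23, a ratio of 74.9 (20.3 to 625.5). The edgeR adjusted p values of these changes were 3.77e-11 and 1.62e-08. With so few counts before LPS the interaction could not be read, at -1.26 with an interval of -4.75 to 2.23 (adjusted p = 0.669). It passed under 1 of 19 alternatives, on log2(TPM + 1), at -0.77 (limma adjusted p = 0.0239), and the highest adjusted p was 0.853. Among stimulated cells Csf3 fell 2.24-fold with JSH-23 (log2 fold change -1.17 ± 0.25, adjusted p = 0.000609). The call ended without WTL + JSH23 replicate 1 (-0.95) and with limma on TPM (-0.76), although the adjusted p still passed in both.

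Csf2, on chromosome 11 at 54247271 to 54249667 (minus strand), encodes GM-CSF itself and was at the edge of detection. Its expected counts were 0, 0 and 2 in WT, 8, 7 and 2 in WTL, 0, 0 and 0 in WT + JSH23 and 2, 0 and 0 in WTL + JSH23. The WTL libraries held 17 of the 21 read pairs found in the series, and WTL replicate 6 held no more than the highest library of WT and of WTL + JSH23. The ratio of WTL to WT was 10.6, with an exact interval of 2.52 to 94.7, and that of WTL + JSH23 to WTL was 0.119 (0.0134 to 0.502), both for counting error alone. In the edgeR fit without a filter on low counts the adjusted p values were 0.0168 and 0.0475. For Il10 between WTL and WT the same fit gave 1.37e-256, against 8.50e-14 in the main fit. Its p values are thus not on the scale of the main test, which Csf2 did not enter. An antisense gene, Gm12223, overlaps Csf2 and had no count in any library. No count of the 8 genes was fractional, so none had been divided with another gene by the quantification.

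**Figure D4:**
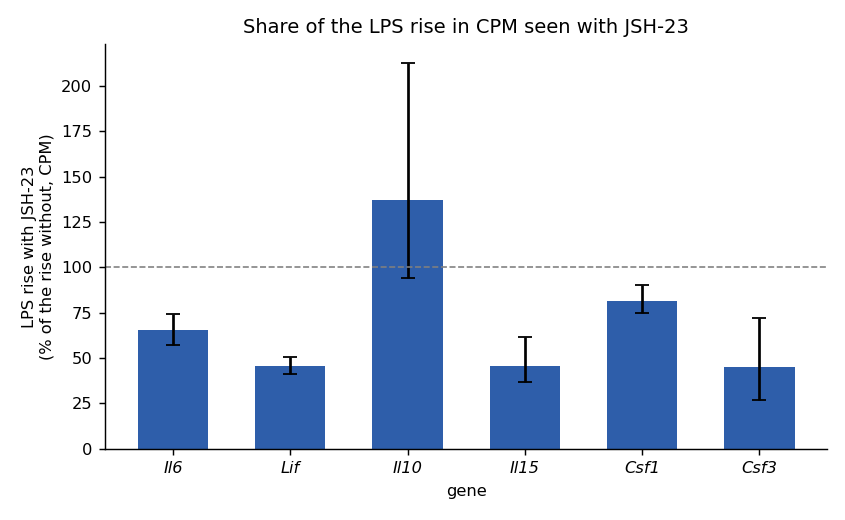
Mean rise with LPS in CPM under JSH-23 as a percentage of the mean rise without JSH-23, for 6 genes. Bars start at 0, whiskers are the span when the closest and the farthest libraries of each group are set against each other, and the dashed line is an equal rise; Il10 is the gene above the line, and its whisker crosses it.

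Levels of different genes were set side by side per length, as TPM. In WT, Il15 was the most abundant of the 8 transcripts (103 ± 3.71 TPM, SD, n = 3), followed by Il6 (45.7 ± 4.61), Csf1 (15.9 ± 1.12), Lif (7.34 ± 1.52) and Osm (3.96 ± 0.41). Il15 also led in WT + JSH23, at 84.2 ± 3.04 TPM. With LPS Il6 led by a wide margin, at 2524 ± 108 TPM in WTL and 1786 ± 99.2 TPM in WTL + JSH23, where Il15 came next at 151 ± 8.08 and 103 ± 2.03 TPM. Lif and Csf1, at 57.9 ± 2.20 and 54.8 ± 1.41 TPM in WTL, stood at 32.2 ± 2.04 and 50.1 ± 1.42 TPM in WTL + JSH23.

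The nearest patterns over the 12 libraries were looked up among protein-coding genes that reached 10 CPM in at least 1 group, as Pearson r of log2 CPM, which mostly follows the 4 group levels that all 12 points share. Fosl2 was nearest to Il6 (r = 0.999), Tnip1 to Lif (0.998), Adamtsl5 to Osm (0.986), Ptges to Il10 (0.994), Serpinb2 to Il15 (0.997), Ptgs2 to Csf1 (0.999) and Fcho1 to Csf3 (0.995). Next came Maff and Cd80 for Il6, Ncoa5 and Tagln2 for Lif, Fam129b and Spic for Osm, Ripk2 and Clec4e for Il10, Tra2a and Bfar for Il15, Ptx3 and Alpk2 for Csf1, and Ikbkb and Abtb2 for Csf3. Among the 7 genes themselves r lay between -0.22 and 0.46 for pairs with Osm and between 0.70 and 0.99 for the other pairs. These are descriptions over n = 12 libraries.

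The receptors of these cytokines moved with LPS in both directions. Of 14 receptor genes, 12 were tested (not Osmr and Il2rb), and between WTL and WT 5 rose, 7 fell beside 31.0% and 34.7% of all genes, and 3 of the latter were called (9.09% of all genes), with a median of -0.26 beside -0.05 over all genes. The 3 called were Il6ra, the specific chain for IL-6, from 44.0 ± 2.73 to 4.50 ± 0.23 CPM (SD, n = 3; log2 fold change -3.29 ± 0.08, adjusted p = 1.63e-18), the shared chain Il6st, from 342.5 ± 2.76 to 92.0 ± 5.78 CPM (-1.90 ± 0.05, adjusted p = 1.68e-18), and Csf2rb, the common β chain for GM-CSF, from 2559 ± 30.2 to 1242 ± 58.2 CPM (-1.04 ± 0.04, adjusted p = 7.82e-16). Il15ra, which presents IL-15, rose from 103 ± 4.33 to 173.5 ± 6.57 CPM (0.76 ± 0.04, adjusted p = 6.98e-13). The interaction passed for Il6st (0.89 ± 0.07, adjusted p = 2.60e-08), Csf1r, the M-CSF receptor (0.34 ± 0.06, adjusted p = 0.000583), and Csf2rb (0.25 ± 0.05, adjusted p = 0.00292), each of which fell less with LPS in the presence of JSH-23. In unstimulated cells JSH-23 lowered 9 of the 12 and raised none (22.1% and 18.8% of all genes), Il10ra by the most (-0.86 ± 0.04, adjusted p = 2.53e-13) and Il6ra next (-0.75 ± 0.06, adjusted p = 2.11e-09), with none past 2-fold and a median of -0.33 beside -0.01 over all genes. Il10ra and Il6ra were also lower with JSH-23 in stimulated cells (-0.89 ± 0.04 and -0.46 ± 0.13, edgeR adjusted p = 1.11e-13 and 0.00498).

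Of 9 genes for JAK kinases, STATs and their phosphatases, all tested, 6 rose with LPS (31.0% of all genes), none fell and 1 was called higher (7.36% of all genes), with a median of 0.31 beside -0.05 over all genes. The called gene was Stat5a, a transducer for GM-CSF and IL-15, at 149 ± 1.91 CPM in WT and 531 ± 26.4 CPM in WTL (SD, n = 3; log2 fold change 1.83 ± 0.05, adjusted p = 1.62e-18). Its LPS change was smaller with JSH-23 (interaction -0.30 ± 0.06, adjusted p = 0.00220), as was that of Stat5b (-0.28 ± 0.07, adjusted p = 0.00578). In stimulated cells 7 of the 9 were lower with JSH-23 and none higher (24.2% and 24.5% of all genes), with a median of -0.25 beside 0.02 over all genes, the phosphatase gene Ptpn6 by the most (-0.81 ± 0.04, adjusted p = 3.35e-13). Ptpn6 was also lower with JSH-23 in unstimulated cells (-0.88 ± 0.04, edgeR adjusted p = 1.16e-13).

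Of 8 genes listed as feedback and target genes of these pathways, all tested, 6 rose with LPS and 2 fell (31.0% and 34.7% of all genes). With LPS 5 were called higher (7.36% of all genes), and the median was 1.32 beside -0.05 over all genes. The list came from general knowledge, and whether each gene answers to these cytokines here was not tested. Socs3, the feedback inhibitor of IL-6 signalling, rose from 39.8 ± 0.43 to 554 ± 30.6 CPM (SD, n = 3; log2 fold change 3.80 ± 0.07, adjusted p = 9.59e-21), and Cish, a STAT5 target, from 10.1 ± 1.09 to 37.3 ± 1.67 CPM (1.88 ± 0.07, adjusted p = 2.85e-15). JSH-23 lowered Socs3 in both states, with log2 fold changes of -1.11 ± 0.08 without and -1.27 ± 0.06 with LPS and an interaction of -0.16 (adjusted p = 0.306). Socs1, which restrains JAK kinases, fell by 1.12 on the log2 scale without LPS (adjusted p = 3.62e-11) and was at -0.99 with it (adjusted p = 1.30e-11). Cish moved in opposite directions with the inhibitor, 0.61 ± 0.08 without LPS (adjusted p = 2.61e-06) and -0.42 ± 0.07 with it (adjusted p = 2.07e-05), the same pair of signs as Il6, and the interaction was -1.03 ± 0.10 (adjusted p = 1.08e-06). The survival kinase gene Pim1 and the atypical IκB gene Bcl3 also had smaller LPS changes with JSH-23 (interactions -0.60 and -0.28, adjusted p = 8.01e-06 and 0.00494), whereas those of Osgin1, a gene induced by oxidative stress, and Il4ra, the IL-4 receptor chain, were shifted upward (0.63 and 0.20, adjusted p = 0.000885 and 0.0303). Osgin1 was the 1 gene of the list called higher with JSH-23 in stimulated cells (1.41 ± 0.09, adjusted p = 1.51e-11). Over all genes 538 of 14357 were called higher in that comparison. Socs3 was the 1 gene of the list called lower in it (3.25% of all genes).

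Of 20 related ligand genes, 5 had counts enough for the test and 15 did not, Il3, the neighbour of Csf2, among the latter with no count in any group. Between WTL and WT 3 of the 5 were called higher and 1 fell (7.36% and 34.7% of all genes), with a median of 2.02 beside -0.05 over all genes. Il27, whose product pairs with that of Ebi3 to form IL-27, rose from 4.84 ± 0.18 to 72.0 ± 2.66 CPM (SD, n = 3; log2 fold change 3.90 ± 0.07, adjusted p = 2.87e-21). Clcf1, an IL-6 family ligand, rose from 14.96 ± 0.81 to 74.1 ± 3.21 CPM (2.31 ± 0.07, adjusted p = 1.78e-17) and Ebi3 from 53.6 ± 1.49 to 218 ± 13.4 CPM (2.02 ± 0.05, adjusted p = 2.85e-18). Il7, a lymphocyte survival factor, fell by 0.55 on the log2 scale (adjusted p = 0.00144). Il27 was lower with JSH-23 in both states (-1.85 ± 0.12 without LPS, -1.80 ± 0.06 with it, adjusted p = 8.95e-11 and 5.46e-16) and its interaction was 0.05 (adjusted p = 0.882), while Ebi3 had an interaction of -0.71 ± 0.07 (adjusted p = 1.54e-06) and in unstimulated cells a change of 0.12 (adjusted p = 0.0870). Clcf1 rose 1.03 ± 0.07 with JSH-23 alone (adjusted p = 1.37e-10) and its LPS change was smaller with the inhibitor (interaction -1.22 ± 0.09, adjusted p = 3.06e-08).

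**Figure D5:**
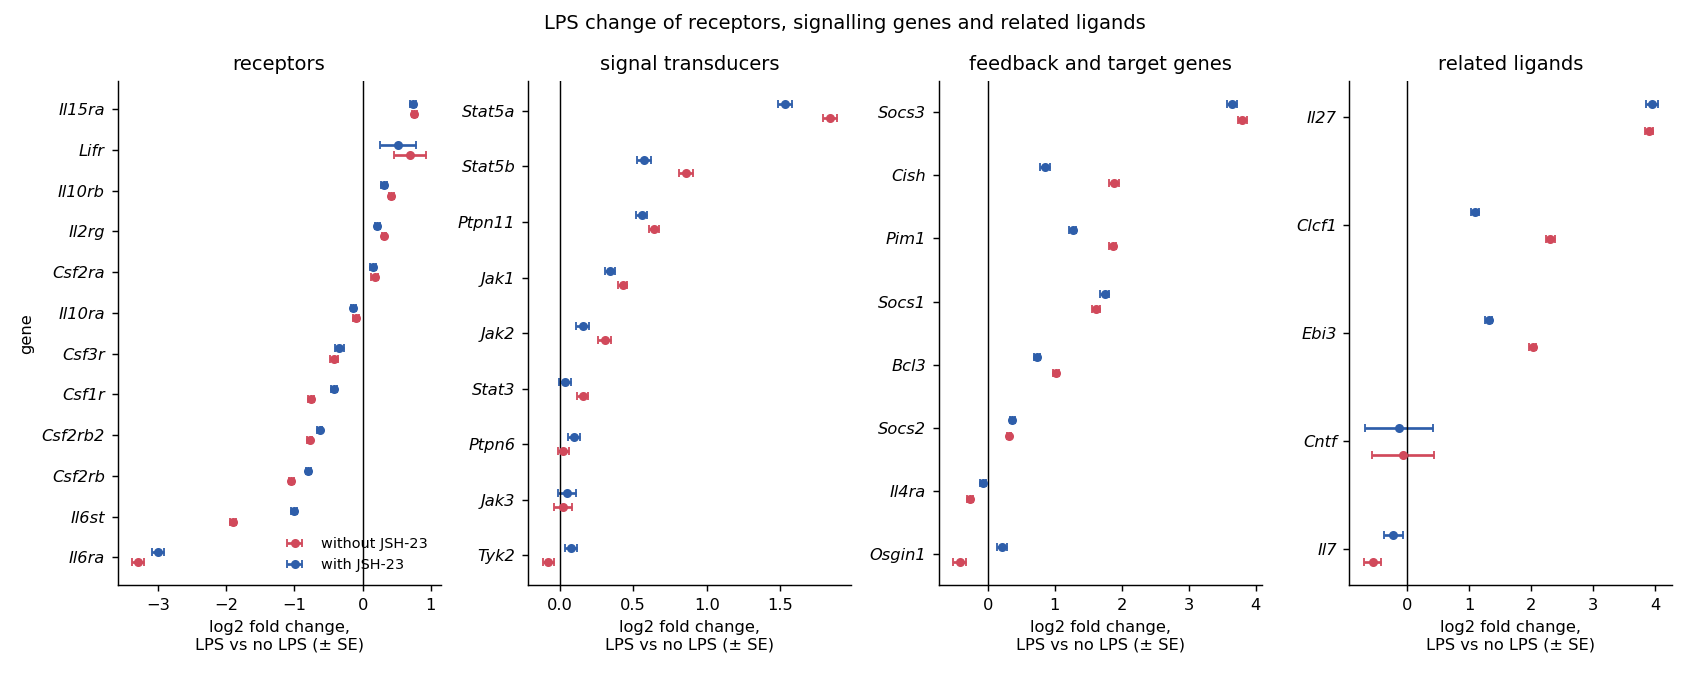
Log2 fold change with LPS, without (red) and with (blue) JSH-23, for the tested receptor, signal transducer, feedback and target, and related ligand genes. Points are estimates and bars are ± SE, with a separate horizontal scale for each list; Il6ra and Il6st have the lowest values among the receptors and Il27 and Socs3 the highest values of their lists.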

How the data were processed

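RNA-seq of 12 BMDC libraries was used, 3 in each of 4 groups taken from the sample titles. The authors trimmed reads with Trim Galore, aligned them to mm10 with STAR (2.6.0c per the labels, while the study's summary names another release) and counted read pairs per gene with RSEM, using a GENCODE annotation (release not given in the sources used here). These deposited expected counts were unnormalized and unfiltered. The deposited TPM values are scaled by the authors to effective transcript length and a common total. The labels name rRNA depletion and the methods a stranded poly(A) kit, and which one applied was not settled.

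Symbols and positions came from GENCODE M21 on the same build, with 55154 of 55335 identifiers matched without the version. Expected counts were rounded and filtered with filterByExpr, which left 14357 genes holding 99.94% to 99.95% of counts. They were scaled by TMM (factors 0.859 to 1.12) and fitted in edgeR 4.0.16 (R 4.3.3) by the quasi-likelihood test with 1 mean per group and 8 residual degrees of freedom. P values are two-sided and adjusted by Benjamini-Hochberg over all genes tested, with 0.05 as threshold, and for pairs of groups calls also needed over 2-fold. SE is the absolute log2 change divided by the square root of F. DESeq2 1.42.0 and limma 3.58.1 on log2(TPM + 1) were alternatives. Intervals for sparse genes are exact (Clopper-Pearson) over summed counts, and a count of 0 allows up to 3 counts. Among list genes, those called or passing the interaction were candidates to be named, at most 8 per list by size of change, while Il15ra, Il10ra, Ptpn6, Il7, Cd14 and Pdgfrb were named after their values were seen. The cytokine genes and the lists were chosen with earlier results of these data known. Promoter sequences are from RefSeq (GRCm38.p6).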

Additional observations from a re-analysis of the deposited data

Results flagged for a closer look

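For 4 genes the test of the interaction found that the LPS change with JSH-23 differed from that without it, by -1.21 for Il6, -0.81 for Lif, -0.64 for Osm and -0.28 for Il15 on the log2 scale, all with a smaller change under JSH-23 (edgeR adjusted p = 1.63e-07, 3.27e-05, 0.00526 and 0.00494). The sign was the same when each of the 12 libraries was left out in turn, with values between -1.28 and -1.09 for Il6, -0.94 and -0.72 for Lif, -0.74 and -0.56 for Osm, and -0.33 and -0.26 for Il15. For Osm and Il6 the level without LPS was itself higher with JSH-23, and for Il15 it was lower.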

How the results depend on the processing

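The count of genes called with LPS stayed at 5 without and with JSH-23 when any library was left out (5 to 5), and at 6 for WTL + JSH23 against WT. For WTL + JSH23 against WTL the main count of 2 became 1 with upper quartile scaling (Lif lost), 0 on log2(TPM + 1) with limma and 7 by the adjusted p alone, and ranged from 0 to 2 over the left-out libraries. For WT + JSH23 against WT the count of 1 became 3 by the adjusted p alone and ranged from 1 to 2, the second gene being Il10 without WT + JSH23 replicate 2. With a 2-fold limit the interaction kept 1 gene, Il6, of 4, and its left-out range was 4 to 5. In all, 115 of 122 counts were within 1.5 times the main one, and 783 of 811 single-gene values kept direction and side of the threshold, with 7 losing the threshold, 11 passing it newly and 10 changing sign.

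The changes of sign were in values near 0 or on few counts. The LPS change of Osm with JSH-23 was -0.0094 with upper quartile scaling, -0.0657 with limma, -0.0295 without WT + JSH23 replicate 1 (the lowest value over the left-out libraries) and -0.0069 without WTL + JSH23 replicate 3, and 0.1479 without WT + JSH23 replicate 3 (the highest). The interaction of Il10 was 0.1149 with limma, and Il15 in WTL + JSH23 against WT was -0.0009 with limma. Csf3 with JSH-23 alone was -0.4581 without WT replicate 5, -0.3415 without WT replicate 6, -2.5105 without WT + JSH23 replicate 2, and 2.5857 without WT replicate 4, and its interaction was 1.3453 without WT + JSH23 replicate 2 and -3.751 without WT replicate 4. The log2(TPM + 1) scale moved the median of all genes by -0.21 for LPS, -0.14 for LPS with JSH-23 and 0.08 for the interaction, and upper quartile scaling moved it by -0.08 for LPS without and with JSH-23. The share of higher calls in the interaction was 53.1%, and 39.9% with DESeq2 and 81.5% with limma on TPM. The cause of these shifts was not tested.

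Same-numbered libraries correlated at 0.0142 to 0.0614 in their deviations from the group means, and those of different number at -0.0564 to 0.0355. What libraries of the same number share was not tested. Not every library correlated best with its own number. With a replicate block 5, 5 and 4 genes were called for the LPS changes and the interaction, as without it, while over all genes the interaction calls went from 2582 to 2968. Motif counts over the bases before the start site differed from those of the whole windows for the κB-like letters alone (3 against 4 genes). Csf2 and the unstimulated levels of Csf3 and Il10 are limited by depth.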
